A study of Arabidopsis thaliana with 18 samples.

Results

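The genes described here are 37 nuclear genes of *Arabidopsis thaliana* that encode enzymes of the Calvin cycle (20 genes) and of photorespiration (17 genes). They were chosen by gene identifier from the 33602 genes of the count table, by the pathway to which they belong. The 20 genes counted under the Calvin cycle include *PGK3*, whose product is a cytosolic kinase of glycolysis. The list includes *PGK1* and *GAPB*, which the study uses as examples of light-induced genes with a close upstream neighbour on their own strand. Those examples come from another experiment, in dark-grown seedlings moved to light, where induction was reduced in the triple mutant. The direction of both genes in the triple mutant is still not independent of that choice. Messenger RNA of whole seedlings was sequenced in 6 groups of 3 libraries, 18 in all, and every group was in the Col-0 background. The groups were the triple mutant *bdrs*, which combines mutations of *BDR1*, *BDR2* and *BDR3*, the *fpa* mutant (allele *fpa-7*), the single mutants *bdr1* (SALK_142108C), *bdr2* (CS852350) and *bdr3* (SALK_059905), and the wild type (WT). All seedlings were harvested at 8 days, from plates kept at 21 °C in a long-day cycle (16 h light, 8 h dark) that followed a cold treatment of 4 days at 4 °C. Each mutant is represented by a single line. *BDR* genes encode BORDER proteins, which carry a SPOC domain and a TFIIS-like domain, and *FPA* encodes an RNA-binding SPOC protein that acts in 3′ end formation. The labels do not say whether the 3 libraries of a group came from seedlings grown apart, so p-values measure the spread between these libraries only.

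In the Calvin cycle, Rubisco fixes CO2 onto ribulose bisphosphate in the chloroplast, phosphoglycerate kinase and glyceraldehyde-3-phosphate dehydrogenase reduce the product to triose phosphate, and aldolases, bisphosphatases, transketolase, an epimerase, an isomerase and phosphoribulokinase rebuild the acceptor. Rubisco also takes up O2, which yields phosphoglycolate. Photorespiration returns its carbon to the cycle through glycolate oxidase and catalase in peroxisomes, glycine decarboxylase and serine hydroxymethyltransferase in mitochondria, and hydroxypyruvate reductase and glycerate kinase on the way back to the chloroplast. The ammonium set free by glycine decarboxylase is recovered in plastids by glutamine synthetase and glutamate synthase. Some of these genes are among the most abundant nuclear transcripts of green tissue.

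The BORDER proteins are named for the borders between genes, so the position of each member relative to the gene upstream of it was taken from RefSeq gene models (TAIR10.1), where all 37 members were found. Of these, 22 (59.5%) had a nearest upstream gene on their own strand (in tandem), against 52.0% of 26707 protein-coding genes. In 12 members (32.4%, against 19.7%) this tandem neighbour ended within 500 bp of the annotated start. *PGK1* (AT3G12780, chromosome 3, 4060920 to 4063306, minus strand) started 13 bp after the end of *SDRB*. *GAPB* (AT1G42970, chromosome 1, 16127353 to 16129895, plus strand) started 54 bp after the end of AT1G42960, and *GLYK* (AT1G80380, chromosome 1, 30217116 to 30220595, plus strand) started 13 bp after the end of *CYCA2;4*. The whole intergenic gap upstream of these 3 genes is shown because it is what separates them from the neighbour, with the gaps of *GGAT2* and *HPR1*, members that also had a close tandem neighbour. The sequences are those of RefSeq TAIR10.1, 5′ to 3′ on the strand of the member.
PGK1, chr3:4063307-4063319, minus strand: gaggcaaaacagt
GAPB, chr1:16127299-16127352, plus strand: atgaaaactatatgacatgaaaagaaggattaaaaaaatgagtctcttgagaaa
GLYK, chr1:30217103-30217115, plus strand: ctgcttcgaatat
GGAT2, chr1:26612350-26612358, plus strand: ccactcttt
HPR1, chr1:25493078-25493192, plus strand: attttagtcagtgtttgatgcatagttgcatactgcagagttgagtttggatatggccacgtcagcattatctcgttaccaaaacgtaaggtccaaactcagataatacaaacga

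These gaps held none of the 4 motifs searched on both strands, so no base stands in capitals. The motifs were the G-box CACGTG, the I-box GATAAG, the TCP-like TGGGCC and the E-box CANNTG, and every G-box is also an E-box. In the window from 250 bp before to 50 bp after the annotated start, which reaches into the upstream gene where the gap is short, a G-box stood in 6 of 37 members (16.2%) against 7.8% of 26712 promoters. An I-box stood in 7 members (18.9% against 14.6%), among them *GAPB*, *RCA* and *RBCS2B*. A TCP-like motif stood in 6 (16.2% against 15.7%) and an E-box in 26 (70.3% against 61.6%), among them *PGK1*, *GAPB* and *GLYK*. A match is a description of the letters only.

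Library totals ranged from 11566600 to 21084793 counts. Ribosomal RNA genes took over 1% of the counts in *bdrs* 1 (1.65%), *fpa* 3 (1.78%) and *bdr1* 3 (1.01%), so results are also given without these libraries. *BDR1* was lower in *bdrs* and *bdr1*, *BDR2* was lower in *bdrs* and *bdr2*, and *FPA* was lower in *fpa*, and the largest edgeR adjusted p of these was 0.0100, for *FPA*. *BDR3* did not pass the test in *bdrs* or *bdr3* (log2 fold changes −0.14 and −0.32), so counts over the whole gene do not check that label.

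Together the 37 members made up 8.94% ± 0.65 of *bdrs* counts, 8.09% ± 0.66 of *fpa* counts and 8.82% ± 0.78 of WT counts (SD, n = 3 each). Levels are CPM, counts per 1000000 counts of a library whose size was scaled by TMM. Per kilobase of exon, levels in WT spanned over 2 orders of magnitude among the 36 members that could be tested. *RBCS1A*, the main gene of the Rubisco small subunit, stood highest at 11787 ± 722 CPM per kb (SD, n = 3), and its lowest WT library lay above the highest value of *RCA*, the gene of Rubisco activase, at 6363 ± 941 CPM per kb. *RBCS3B* (4226 ± 658), *FBA2* (3368 ± 249.5), *AGT1* (1805, with libraries from 1774 to 1862) and *GAPB* (1474 ± 44.0 CPM per kb) were also high. *PGK1* stood at 703 ± 15.9 CPM per kb, against 79.3 ± 7.72 for *PGK2*, so the WT ranges of these 2 plastid kinase genes did not overlap. *GGAT2* was lowest of the tested members at 20.2 ± 1.70 CPM per kb. The 37th member, *PGLP1* (phosphoglycolate phosphatase), held only 1 to 9 reads per library and failed the filter on low counts. Its coding sequence is 100% identical to that of *PGLP1B* (AT5G36790), every 43 bp window of it occurs there, and the authors kept uniquely aligned reads, so its counts do not measure its level. *RBCS1B*, *RBCS2B* and *RBCS3B* are 96.7% to 97.3% identical over aligned coding bases and share 26.6% to 38.3% of their 43 bp windows, so the split of reads among them is uncertain.

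The triple mutant was first set against WT. A gene was called where its adjusted p from edgeR lay below 0.05. No member was called higher, and 0 of 36 is near the 1.89% of all 20143 tested genes that were. Only *PGK1* and *GAPB*, 2 of the 36, were called lower, where 2.78% of all tested genes were. Both act in the reduction step of the cycle. *PGK1*, the major plastid phosphoglycerate kinase gene, had 789, 744 and 938 CPM in *bdrs*, against 1261, 1313 and 1265 CPM in WT. Every *bdrs* library lay below every WT library, and the WT libraries were close together. The log2 fold change was −0.64 ± 0.17 (SE), or 1.55-fold lower (edgeR adjusted p = 0.0379). *GAPB*, the B subunit of the plastid NADP-dependent glyceraldehyde-3-phosphate dehydrogenase, had 1495, 1557 and 1845 CPM in *bdrs*, against 2703, 2825 and 2669.9 CPM in WT. The groups again did not overlap, and the log2 fold change was −0.74 ± 0.18, or 1.67-fold lower (edgeR adjusted p = 0.0160). In *bdrs* both genes were highest in library 3.

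**Figure D1:**
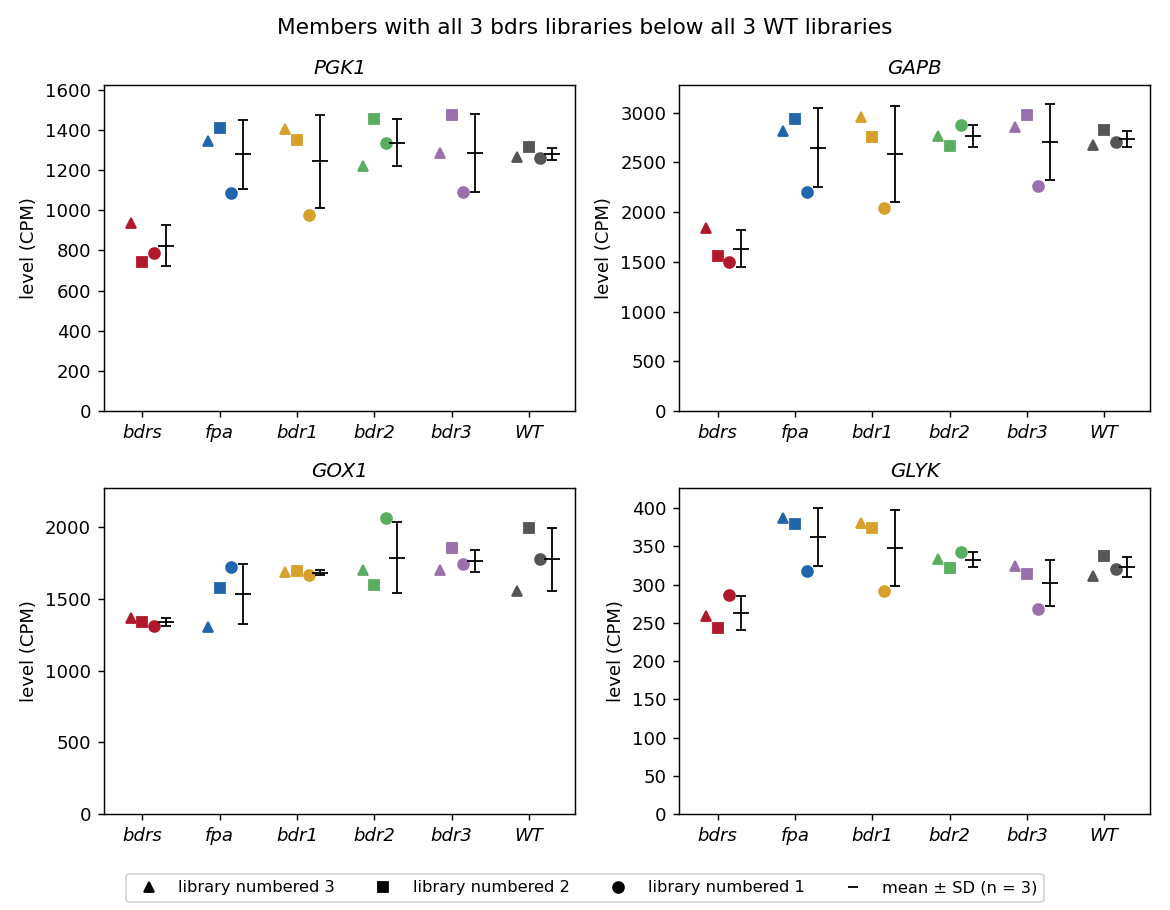
Levels of *PGK1*, *GAPB*, *GOX1* and *GLYK* in CPM (y axis) in the 3 libraries of each group (x axis), where marker shapes give the replicate number and black bars the mean ± SD (n = 3). The *bdrs* libraries of *PGK1* lie between 744 and 938 CPM and those of *GAPB* between 1495 and 1845 CPM, below all other libraries of both genes.

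These calls were close to the threshold. The log2 fold change of *PGK1* stayed between −0.74 and −0.58 under all 12 alternatives, but its call was lost without WT 1, WT 2, WT 3, *bdrs* 1 or *bdrs* 2 (edgeR adjusted p = 0.0882, 0.119, 0.0966, 0.0770 and 0.193). For *GAPB* it stayed between −0.84 and −0.68, and the call was lost without WT 2 or *bdrs* 2 (edgeR adjusted p = 0.0644 and 0.0855). The count of members called lower was 1 without WT 1, WT 3 or *bdrs* 1 and 0 without WT 2 or *bdrs* 2. It was also 0 without the 3 libraries rich in ribosomal RNA (edgeR adjusted p = 0.0884 for *PGK1* and 0.0561 for *GAPB*). Over all alternatives the adjusted p ran from 0.00443 to 0.193 for *PGK1* and from 0.000234 to 0.0855 for *GAPB*.

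All *bdrs* libraries lay below all WT libraries in 4 of 36 members, near the 9.29% of all tested genes, and above them in 0 of 36, where 8.81% of all tested genes did. The other 2 members were *GOX1* and *GLYK*, which edgeR did not call. *GOX1*, a glycolate oxidase gene, had 1309.6, 1338 and 1362 CPM in *bdrs*, against 1778, 1991 and 1550.1 CPM in WT (log2 fold change −0.41 ± 0.15, edgeR adjusted p = 0.183, and 0.0337 to 0.440 over its alternatives). The lowest of these was that of DESeq2, which called *GOX1* lower beside *PGK1* and *GAPB*. *GLYK*, the glycerate kinase gene, had 286, 243 and 259.6 CPM in *bdrs*, against 320.3, 338 and 311 CPM in WT (−0.30 ± 0.14, edgeR adjusted p = 0.313). At an unadjusted p under 0.05, these 4 members were lower and none was higher, where 1447 tested genes were lower and 1506 higher. The median log2 fold change was 0.05 over the 36 members and 0.01 over all tested genes, and 21 members had a positive value.

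Paralogues of the called genes had values of either sign. *PGK2*, the second plastid kinase gene, had a log2 fold change of 0.33 ± 0.16 in *bdrs* against WT, and *PGK3*, whose product is a cytosolic kinase of glycolysis, 0.23 ± 0.14. *GAPA1* and *GAPA2*, the A subunits that assemble with GAPB, had 0.02 ± 0.21 and −0.17 ± 0.20. The Rubisco genes were not called. *RCA* had 11000.3, 15876 and 16017 CPM in *bdrs*, against 13051, 15485 and 11571 CPM in WT. Its groups overlapped over most of their range. *RBCS1A* had 13679, 13055 and 16047 CPM in *bdrs*, against 15849, 14018 and 14969.6 CPM in WT. *RBCS1B* had 759, 863 and 851 CPM in *bdrs*, against 834, 853 and 608 CPM in WT. The log2 fold changes of the 4 small subunit genes lay between −0.07 and 0.11. *RBCS2B* had 1801, 2466 and 2230 CPM in *bdrs*, against 2272, 2321 and 1917 CPM in WT, and *RBCS3B* had 4726, 6515 and 7192 CPM in *bdrs*, against 5646, 7003 and 5228 CPM in WT. In the regeneration steps *PRK* (phosphoribulokinase) had the highest value, 0.27 ± 0.14, and *RPI3* (ribose-5-phosphate isomerase) the lowest, −0.22 ± 0.22. In photorespiration *GLU1*, the ferredoxin-dependent glutamate synthase, had the highest value, 0.30 ± 0.24. Markers fixed for root and for green tissue gave 0 of 15 tested root genes and 0 of 17 light-harvesting genes called in *bdrs* against WT. The shares of all tested genes were 1.89% higher and 2.78% lower. Median log2 fold changes were 0.31 for the root genes and −0.15 for the light-harvesting genes. The part of these markers in the values above was not tested. In whole seedlings fewer cells of a type and less RNA per cell cannot be told apart.

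**Figure D2:**
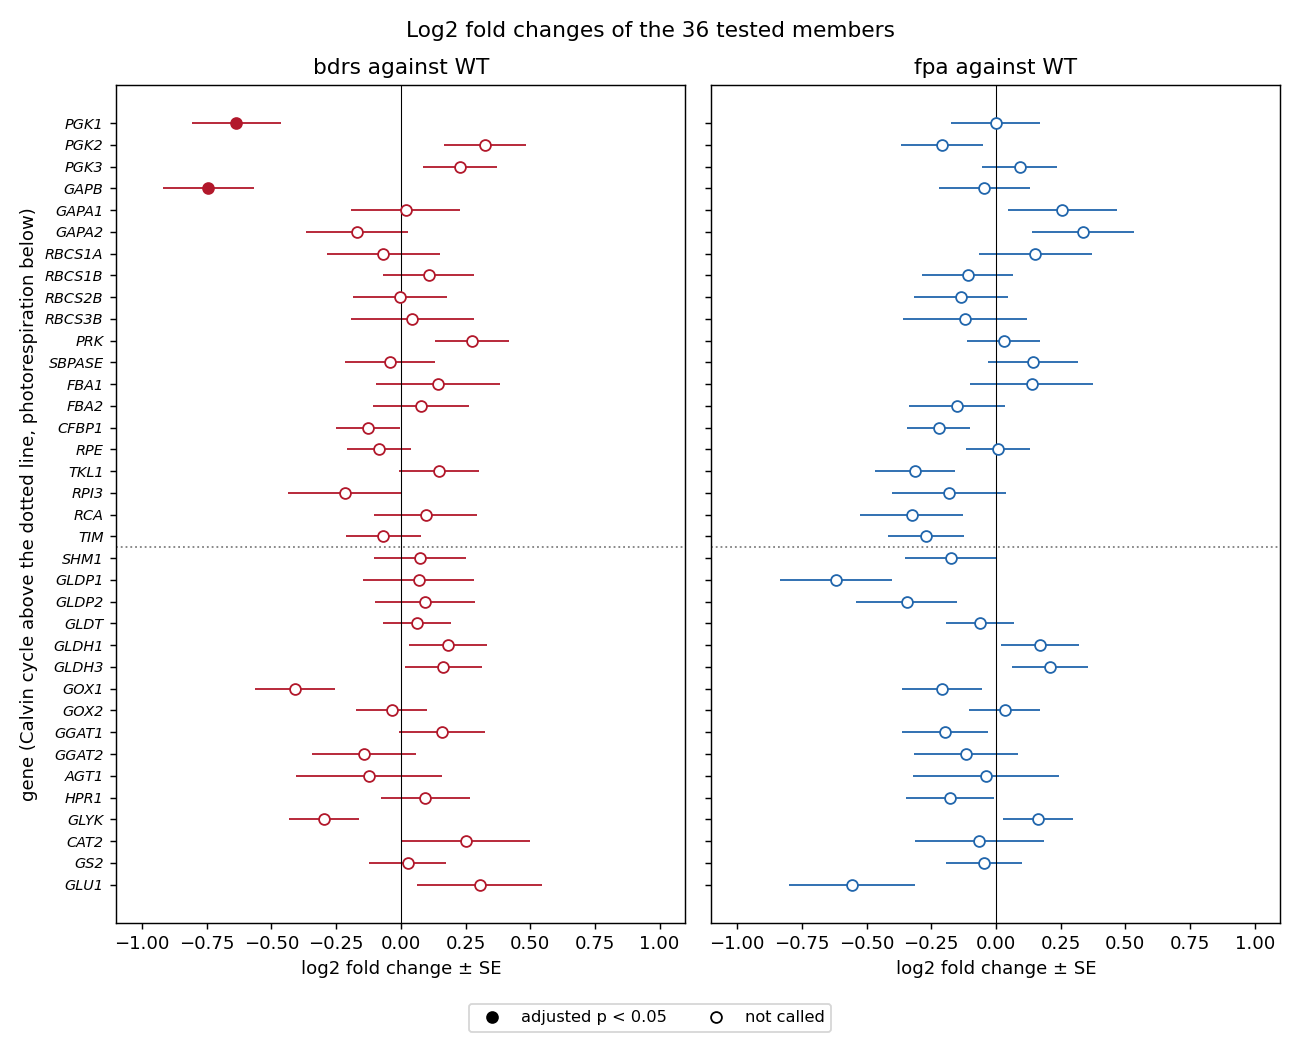
Log2 fold changes ± SE (x axis) of the 36 tested members (y axis) for *bdrs* against WT (left) and *fpa* against WT (right). Filled points mark an adjusted p under 0.05, which *PGK1* and *GAPB* reached in *bdrs* and no member reached in *fpa*.

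The 4 members with the lowest values in *bdrs* all had a tandem neighbour within 500 bp upstream. Of the 12 such members 11 were tested, with a median log2 fold change of −0.14, 9 negative values and 2 called lower. The other 25 members had a median of 0.09, 6 negative values and none called. They include *GAPA1*, whose tandem neighbour overlaps it by 13 bp. Within 150 bp, 6 members were tested, and *PGK1* (13 bp) and *GAPB* (54 bp) were called, while *GLYK* (13 bp, −0.30), *GGAT2* (9 bp, −0.14), *SBPASE* (49 bp from a tRNA gene, −0.04) and *HPR1* (115 bp, 0.09) were not. A short gap was thus shared by called and uncalled members. Over all annotated genes of this kind the shares were 228 of 1948 tested genes (11.7%) called lower with a tandem neighbour at 0 to 150 bp, 323 of 4280 (7.55%) at 0 to 500 bp, and 236 of 15728 (1.50%) among the remaining annotated genes. Of the 12 upstream genes, 9 could be tested and 0 were called in *bdrs* against WT (lowest edgeR adjusted p = 0.0992). Of all tested genes 1.89% were called higher and 2.78% lower, so 0 of 9 is near those shares. *GOX2*, the gene before *GOX1*, is itself a member. *SDRB* had 78.4, 65.4 and 63.0 CPM in *bdrs*, against 80.6, 70.0 and 65.1 CPM in WT, so the gene before *PGK1* overlapped between groups. AT1G42960, the gene before *GAPB*, had 131, 112 and 127 CPM in *bdrs*, against 129, 116 and 125 CPM in WT. Gene models newer than those the authors counted were used for these distances.

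**Figure D3:**
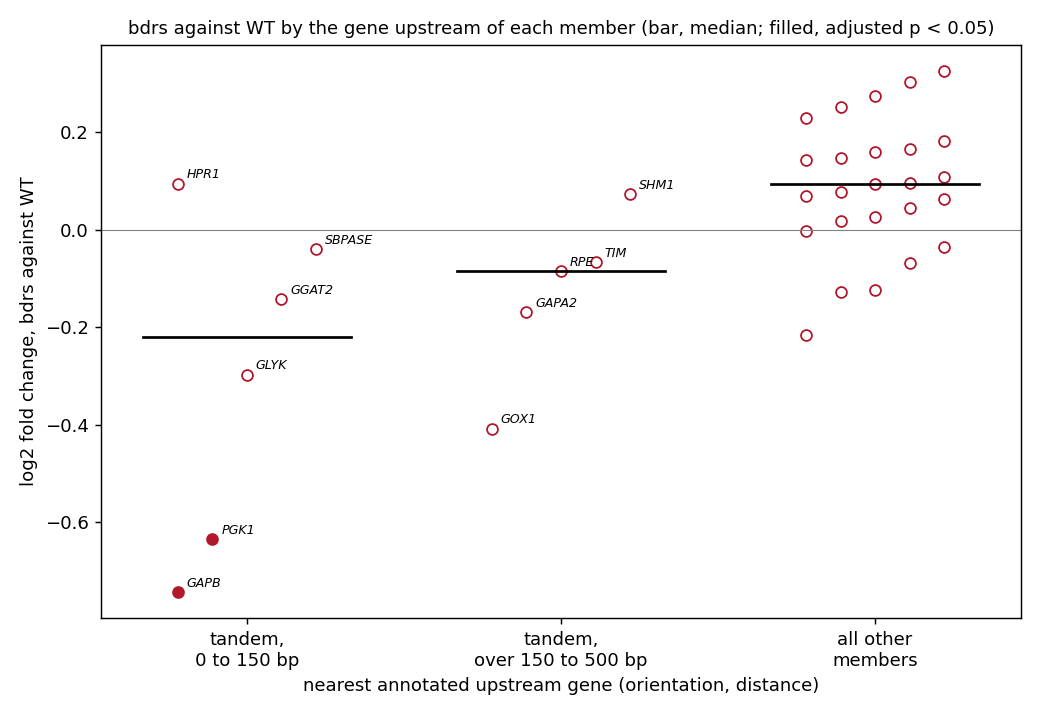
Log2 fold change of *bdrs* against WT (y axis) for the 36 tested members by the nearest annotated upstream gene (x axis). The distance classes were chosen with earlier results of these data known. Bars are medians and filled points mark an adjusted p under 0.05; 9 of the 11 members with a tandem neighbour at 0 to 500 bp lie below 0, and 19 of the other 25 lie above it.

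No member passed the test in a single mutant against WT, where 0.0248% of all tested genes did in *bdr1*, 0.0397% in *bdr2* and 0.0199% in *bdr3*. At an unadjusted p under 0.05, edgeR gave 1 member in *bdr1* (*GLDH3*, an H protein of glycine decarboxylase, 0.32 ± 0.15) and 0 in *bdr2* and *bdr3*, where it gave 1164 of all 20143 tested genes in *bdr1*, 160 in *bdr2* and 893 in *bdr3*. DESeq2 called 0 members in each. *PGK1* had 978, 1351 and 1403 CPM in *bdr1*, 1333, 1455 and 1223 CPM in *bdr2*, and 1089, 1477 and 1284 CPM in *bdr3*. *GAPB* had 2043, 2756 and 2954 CPM in *bdr1*, 2874, 2662 and 2762 CPM in *bdr2*, and 2265, 2980.4 and 2860.4 CPM in *bdr3*. For both genes the single mutants enclosed the WT values, and library 1 was lowest in *bdr1* and *bdr3*.

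The triple mutant was then set against the mean of the 3 single mutants. None of the 36 tested members was called higher (4.01% of all tested genes were), and *PGK1* and *GAPB* were called lower (3.5% of all tested genes were). The log2 fold change was −0.64 ± 0.15 for *PGK1* (edgeR adjusted p = 0.00727) and −0.72 ± 0.15 for *GAPB* (edgeR adjusted p = 0.00383). Every *bdrs* library lay below all 9 single-mutant libraries in both genes. *GAPB* was called in all 17 alternatives. *PGK1* lost its call without *bdrs* 2 (edgeR adjusted p = 0.0857, range over its alternatives 6.62e-05 to 0.0857), which left 1 member called lower, and without the libraries rich in ribosomal RNA. *GOX1* (−0.38 ± 0.13) and *GLYK* (−0.32 ± 0.11) did not pass this test, but DESeq2 called both lower, and the replicate block called *GOX1*.

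In *fpa* against WT no member was called, whereas 1.31% of all tested genes were called higher and 3.12% lower. *PGK1* had 1085, 1408 and 1347 CPM in *fpa*, against the WT values above (log2 fold change 0.00 ± 0.17), and *GAPB* had 2199, 2935 and 2811 CPM (−0.05 ± 0.18). Both enclosed the WT values. At an unadjusted p under 0.05, 2 members were lower, *GLDP1* (−0.62 ± 0.22, edgeR adjusted p = 0.114) and *GLU1* (−0.56 ± 0.24, edgeR adjusted p = 0.196), where 2330 of all 20143 tested genes were lower. *GLDP1*, a P protein of glycine decarboxylase, was called by DESeq2. Same-numbered *fpa* and WT libraries deviated together, but the main fit held no term for the number. With the number as a block 0 members were called as well, while the calls over all genes changed to 474 higher and 888 lower, against 264 and 629 without it. The members had a median log2 fold change of −0.09 in *fpa*, with 23 of 36 negative, against 0.01 over all tested genes.

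The direct comparison of *bdrs* with *fpa* gave 4 members higher (10.8% of all tested genes were) and 3 lower (9.02% of all tested genes were), shares of 11.1% and 8.33% of the tested members that are near those of all genes. *GLU1* had 1113, 1649 and 1885 CPM in *bdrs*, against 987, 942 and 631 CPM in *fpa*. All *bdrs* libraries lay above all *fpa* libraries (log2 fold change 0.86 ± 0.24, edgeR adjusted p = 0.0206). *GLDP1* had 3187, 4378 and 4300.0 CPM in *bdrs*, against 2637, 2792 and 1947 CPM in *fpa* (0.69 ± 0.22, edgeR adjusted p = 0.0333). *PGK2* had 154, 199 and 224 CPM in *bdrs*, against 115, 138 and 145 CPM in *fpa* (0.53 ± 0.16, edgeR adjusted p = 0.0253). The groups were separate in each of these genes. *TKL1*, a transketolase of the regeneration phase, had 1353, 1547 and 1617 CPM in *bdrs*, against 1171, 1093 and 1019 CPM in *fpa* (0.46 ± 0.16, edgeR adjusted p = 0.0441). In WT, *TKL1* had 1275, 1491 and 1315 CPM, *GLU1* 1171, 1616 and 977 CPM, and *GLDP1* 3445, 4636 and 3233 CPM, so WT overlapped *bdrs* in all 3 genes. *GAPB* (−0.70 ± 0.18), *PGK1* (−0.64 ± 0.17) and *GLYK* (−0.46 ± 0.14) were the 3 lower members (edgeR adjusted p = 0.0116, 0.0168 and 0.0254). *GLYK* had 318, 379.7 and 388 CPM in *fpa*, all above the *bdrs* values. These 3 had a tandem neighbour within 150 bp, and none of the 4 higher members had one within 500 bp. *PGK2* and *TKL1* had an upstream gene at 70 and 146 bp, but on the opposite strand. The *bdrs* libraries are those already set against WT, so this sorting by neighbour is not a separate observation. Over all annotated genes, 419 of 1948 tested genes (21.5%) whose tandem neighbour lay within 150 bp were lower and 115 (5.90%) higher in *bdrs* than in *fpa*. Among the annotated genes without one at 0 to 500 bp, which include genes that overlap a tandem neighbour, 1138 of 15728 (7.24%) were lower and 1852 (11.8%) higher.

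**Figure D4:**
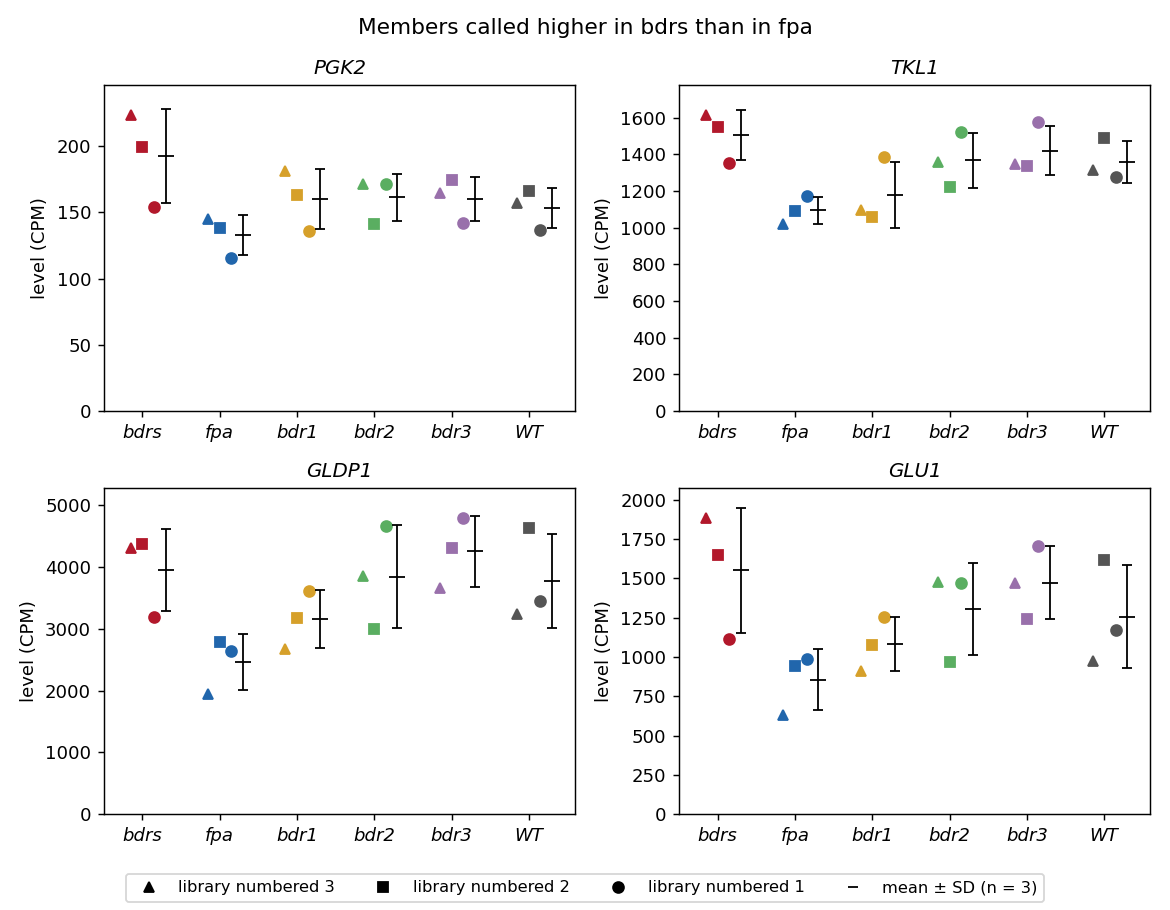
Levels of *PGK2*, *TKL1*, *GLDP1* and *GLU1* in CPM (y axis) in the 3 libraries of each group (x axis), where marker shapes give the replicate number and black bars the mean ± SD (n = 3). In each gene the *bdrs* libraries lie above the *fpa* libraries, for *GLU1* at 1113 to 1885 CPM in *bdrs* against 631 to 987 CPM in *fpa*.

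Leaving out single libraries changed these counts. The 4 higher members became 0 without *bdrs* 2 or *bdrs* 3 and 1 without *fpa* 1, *fpa* 2 or *fpa* 3. The 3 lower members became 0 without *bdrs* 2 or *fpa* 2 and 1 without *fpa* 3. Without the libraries rich in ribosomal RNA, *PGK2* and *GLU1* were called higher and 0 members lower. A fit on the *bdrs* and *fpa* libraries alone called 1 member higher, *GLU1*, and *GAPB* and *PGK1* lower.

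Libraries of all groups carry the numbers 1, 2 and 3, and the labels do not say what libraries of the same number share. The comparison of the 6 libraries numbered 3 with the 6 numbered 1, with genotype in the fit, called 2 members higher (7.91% of all tested genes were) and 3 lower (9.04% of all tested genes were), again near the shares of all genes. *CAT2*, the main catalase of photorespiration, ranged from 1657 over a median of 2011 to 2790.4 CPM in libraries numbered 3, against 2575, 2977 and 3463 CPM in those numbered 1. It was lower in all 6 genotypes (log2 fold change −0.55 ± 0.11, edgeR adjusted p = 0.00254). *SBPASE*, sedoheptulose-bisphosphatase, ranged from 477 over 534 to 587 CPM in libraries numbered 3, against 580.4, 664 and 747 CPM in those numbered 1 (−0.32 ± 0.09, edgeR adjusted p = 0.0217). *HPR1*, the peroxisomal hydroxypyruvate reductase, ranged from 752 over 929 to 1076 CPM in libraries numbered 3, against 1065, 1100.4 and 1243 CPM in those numbered 1 (−0.30 ± 0.09, edgeR adjusted p = 0.0316). Both were lower in 5 of 6 genotypes, with *bdrs* the exception. *AGT1*, the serine:glyoxylate aminotransferase, ranged from 3830.1 over 4362 to 5597 CPM in libraries numbered 3, against 2481, 2939 and 3739 CPM in those numbered 1. It was higher in all 6 genotypes (0.54 ± 0.15, edgeR adjusted p = 0.0194), and *bdr1* was widest apart, with 5597 CPM in library 3, 5750 CPM in library 2 and 2576 CPM in library 1. *PGK2* was higher in 6 of 6 genotypes (0.28 ± 0.09, edgeR adjusted p = 0.0363), but only by 171.5 against 171.0 CPM in *bdr2*.

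**Figure D5:**
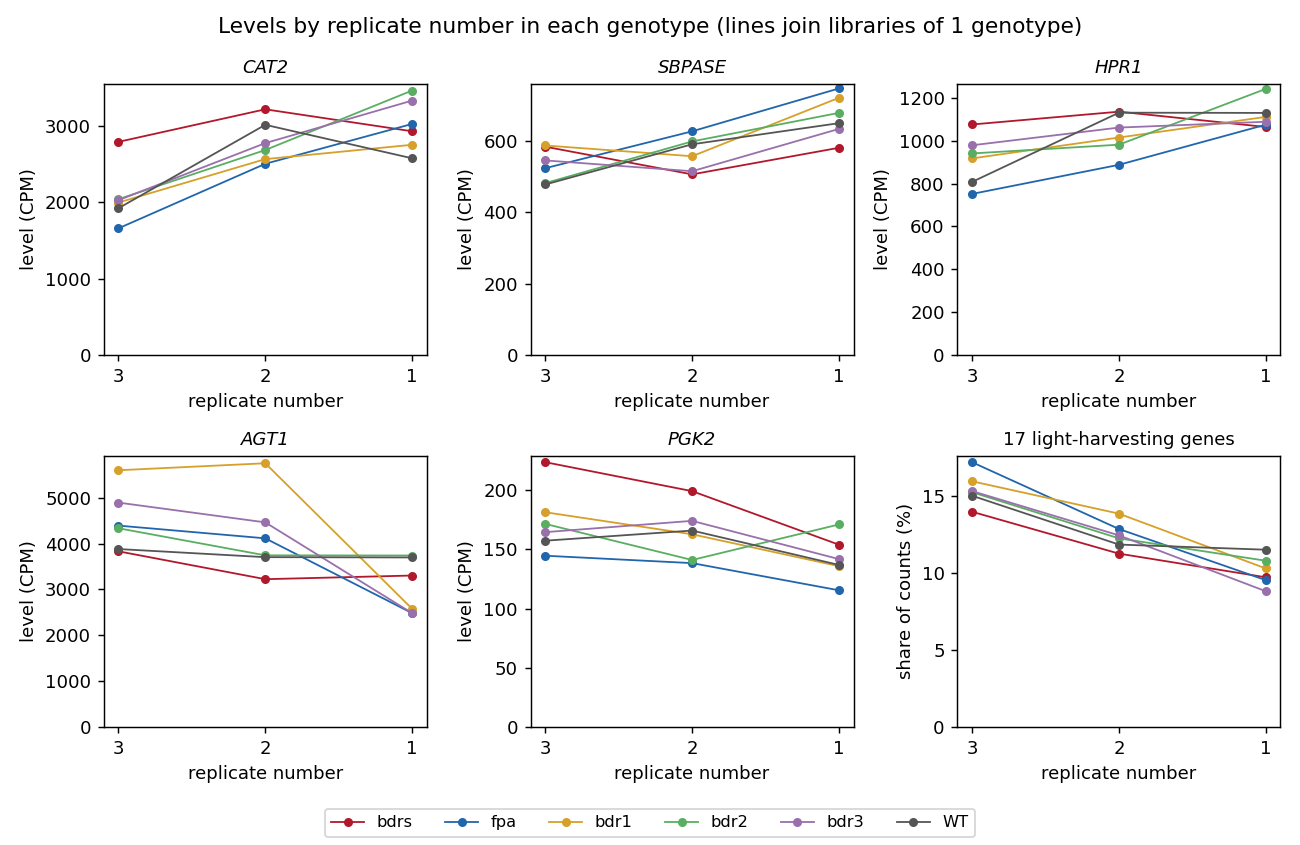
Levels in CPM (y axis) of the 5 members called between libraries numbered 3 and 1, and the share of counts of 17 light-harvesting genes in percent (lower right), by replicate number (x axis). Lines join the libraries of a genotype; *CAT2* is lower in libraries numbered 3 than in those numbered 1 in every genotype, and the light-harvesting genes hold 15.5% of counts in libraries numbered 3 and 10.11% in those numbered 1.

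*PRK*, *RPE* (ribulose-phosphate epimerase) and *RCA* had the largest p in this comparison, with log2 fold changes of −0.04 ± 0.09, 0.03 ± 0.08 and 0.03 ± 0.13. *RCA* ranged from 10136 over 13641 to 16017 CPM in libraries numbered 3, against 11000.3, 12714 and 16560.1 CPM in those numbered 1. *PRK* ranged from 903 over 1000.4 to 1287 CPM in libraries numbered 3, against 992, 1059.6 and 1118 CPM in those numbered 1, and *RPE* from 587 over 623 to 718 CPM, against 567, 621 and 655 CPM. All 3 genes overlapped between the numbers. Library 3 lay above library 1 in all 6 genotypes in 2 of 36 members, *PGK2* and *AGT1* (9.24% of all tested genes did), and below it in 3, *PGK3*, *GOX2* and *CAT2* (10.4% of all tested genes did). The replicate number took 78.3% of the variance within groups of *CAT2* and 4.28% of that of *RCA*, with a median of 27.4% over the members and 25.5% over all tested genes.

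The members moved unlike the light-harvesting genes, which bind chlorophyll in the antenna of the photosystems. All 17 of these were called higher in libraries numbered 3, with a median log2 fold change of 0.70, against −0.06 for the 36 members. They took 15.5% ± 1.07 of the counts in libraries numbered 3 and 10.11% ± 0.96 in those numbered 1, and the members took 8.44% ± 0.71 and 8.92% ± 0.67 (SD, n = 6 each). The Calvin cycle members had a median of 0.09 and the photorespiration members −0.14, of which 14 of 16 were negative. The shares above are of counts not scaled by TMM, and the Calvin cycle share was also lower in libraries numbered 3. In TMM-scaled CPM the Calvin cycle members summed to 67156 ± 5123 in libraries numbered 3 and 60915.5 ± 6569 in those numbered 1. The photorespiration members summed to 21686 ± 2578 and 22693 ± 2170.5 CPM. The direction for the Calvin cycle members thus depended on the scaling, and the light-harvesting genes were higher on both scales. The part of the light-harvesting genes in the members' values was not tested. No member was called between libraries numbered 2 and 1 (0.104% of all tested genes were) or between those numbered 3 and 2 (0.576% of all tested genes were). At an unadjusted p under 0.05, edgeR gave 7 of 36 members for 2 against 1, where it gave 3450 of all 20143 tested genes, and 4 members for 3 against 2, where it gave 2316. DESeq2 called 2 members higher for 2 against 1, *RBCS2B* and *RBCS3B*, and 1 lower for 3 against 2, *CAT2*.

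*CAT2* was called in all 23 alternatives of 3 against 1, with adjusted p-values up to 0.0268. *AGT1* lost its call in 7, *SBPASE* in 12, *HPR1* in 15 and *PGK2* in 17. The 2 higher members became 0 without *bdr3* 1, *fpa* 1 or *fpa* 3 and 1 without *bdr1* 1, *bdr1* 3, *bdr2* 3, *bdrs* 1 or *bdrs* 3. The 3 lower members became 1 without WT 3, *bdr1* 1, *bdr2* 3, *bdr3* 1, *fpa* 1 or *fpa* 3.

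Other genes of the pathways, 20 of the Calvin cycle and 19 of photorespiration, gave 1 call in each of the main mutants, both lower. Of all tested genes, 1.89% were called higher and 2.78% lower in *bdrs*, and 1.31% and 3.12% in *fpa*. *CAT1*, a catalase gene, had 6.86, 8.68 and 8.35 CPM in *bdrs*, against 13.4, 20.6 and 17.0 CPM in WT (log2 fold change −1.09 ± 0.19, edgeR adjusted p = 0.00101). *HPR2*, the cytosolic hydroxypyruvate reductase, had 26.3, 31.0 and 35.3 CPM in *fpa*, against 47.6, 53.5 and 51.9 CPM in WT (−0.73 ± 0.18, edgeR adjusted p = 0.0208). Neither overlapped between its groups. *CAT1* was called in all 12 alternatives, and *HPR2* lost its call without WT 2, WT 3, *fpa* 1 or *fpa* 2 (edgeR adjusted p up to 0.106, range from 0.00144). In libraries numbered 3 against 1, 2 of the 20 Calvin cycle genes were higher and 5 lower, and 7 of the 19 photorespiration genes were higher and 0 lower. Of all tested genes, 7.91% were called higher and 9.04% lower in this comparison. *RBCX1*, a chaperone of Rubisco assembly, had the smallest p, at 2.28 over 4.203 to 5.45 CPM in libraries numbered 3, against 0.581, 1.00 and 1.17 CPM in those numbered 1 (2.11 ± 0.20, edgeR adjusted p = 6.57e-06). The chaperonin genes *CPN60A1* (−0.71 ± 0.08) and *CPN60B2* (−0.93 ± 0.13), whose products fold plastid proteins such as Rubisco subunits, were lower (edgeR adjusted p = 2.78e-05 and 0.000207). *CPN60A1* and *RBCX1* did not overlap between the numbers.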

How the data were processed

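RNA was measured in 18 libraries. Per the labels and methods, the authors isolated RNA with Trizol, made stranded mRNA libraries from 1.5 µg, sequenced paired reads, aligned them to TAIR10 with STAR 2.5.2b, kept uniquely aligned reads (SAMtools 1.3.1) and counted them per gene with featureCounts. For strand, the setting is not given in the sources used here. Overlapping genes (*GAPA1* and *PGK3* overlap their upstream gene by 13 bp in TAIR10.1) are therefore uncertain. The deposited raw counts are not normalized. A second deposited table, normalized with DESeq2 1.14.1 in R 3.3.2, was not used.

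edgeR 4.0.16 in R 4.3.3 was run on the deposited counts with TMM factors, filterByExpr and the quasi-likelihood F test, with Benjamini-Hochberg adjustment over 20143 genes, 12 residual degrees of freedom for genotype and 10 with the replicate number added. No 2 libraries of a group were duplicates, since the chi-square statistic divided by its degrees of freedom was never below 12.9. Deviations from group means correlated between same-numbered *fpa* and WT libraries (0.28, 0.12 and 0.51), so these met the rule for pairing. The main test of *fpa* against WT nonetheless held genotype only, and the pairing entered only through the replicate block as an alternative. The members, lists and distance classes were chosen with earlier results of these data known. Values per library are given for members called against WT, *PGK1* and *GAPB*, *RCA* and the *RBCS* genes, and the 5 smallest and 3 largest p of number 3 against 1, and, among other pathway genes, for those called in *bdrs* or *fpa* against WT and the 3 with the smallest p of number 3 against 1; *GOX1*, *GLYK*, *TKL1*, *GLDP1* and *GLU1* were added after their values were seen. Alternatives were RLE size factors, no filter, DESeq2 1.42.0, fits on fewer libraries, a replicate block and no genotype term.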

Additional observations from a re-analysis of the deposited data

Results flagged for a closer look

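Effects of *bdrs* and *fpa* against the same WT libraries differed in 7 members by the direct test of *bdrs* against *fpa*, with log2 fold changes of −0.70 for *GAPB*, −0.64 for *PGK1*, −0.46 for *GLYK*, 0.46 for *TKL1*, 0.53 for *PGK2*, 0.69 for *GLDP1* and 0.86 for *GLU1*. These are 19.4% of the 36 tested members, where 19.9% of all tested genes were called, so the members are at the rate of all genes. Of these, *PGK1* and *GAPB* were also called against WT in *bdrs*, and none was called against WT in *fpa*. *bdrs* differed from the mean of the single mutants in *PGK1* (−0.64) and *GAPB* (−0.72). What lies behind these differences was not tested.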

How the results depend on the processing

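None of the 46 results for single genes changed direction under any alternative. Without the libraries rich in ribosomal RNA, the members called lower were 0 for *bdrs* against WT, 0 for *bdrs* against *fpa* and 1 for *bdrs* against single mutants, and those higher were 2 for *bdrs* against *fpa*. For 3 against 1 it gave 0 higher and 1 lower. DESeq2 called 3 lower for *bdrs* against WT (*GOX1* added), 1 lower for *fpa* against WT, 4 lower for *bdrs* against single mutants (*GOX1* and *GLYK* added), 4 higher and 6 lower for 3 against 1, 2 higher for 2 against 1 and 1 lower for 3 against 2. The 2-group fit called 1 higher for *bdrs* against *fpa*. For 3 against 1, the higher count was 1 with no genotype term, 1 without *bdrs*, and 0 without *fpa*, *bdr1* or *bdr3*. The lower count was 1 without *fpa*, *bdr1*, *bdr2*, *bdr3* or WT. For 3 against 2, 1 was lower without *bdrs*. Leaving out single libraries gave 0 to 2 lower for *bdrs* against WT, 0 to 5 higher and 0 to 4 lower for *bdrs* against *fpa*, 1 to 3 lower for *bdrs* against single mutants, 0 to 3 higher and 1 to 4 lower for 3 against 1, 0 to 1 higher and 0 to 1 lower for 2 against 1, and 0 to 1 lower for 3 against 2. The replicate block gave 2 members lower for *bdrs* against WT (*PGK1* −0.64, *GAPB* −0.75), 4 higher and 3 lower for *bdrs* against *fpa*, 3 lower for *bdrs* against single mutants (*GOX1* added) and 0 members for *fpa* and the single mutants. Outside *fpa* and WT the numbers did not meet the rule for pairing, since same-numbered deviations of *bdrs* and WT correlated at 0.22, 0.28 and 0.02, and of *bdrs* and *fpa* at −0.02, 0.20 and −0.01. The 46 results for single genes were those called in the main fits, with *GOX1* and *GLYK* in *bdrs* against WT added. Only these last 2 could gain a call. Calls that other members gained, such as *GLDP1* in *fpa* against WT under DESeq2, are outside the tally. Over 814 alternatives, 567 kept direction and side of the threshold, 246 lost the call, 1 gained it (*GOX1* in *bdrs* against WT under DESeq2) and 0 reversed. The cause was not tested. *PGLP1* was out of reach at 1 to 9 reads per library.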

Other observations

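Of 36 genes that lie next upstream of a member, or are the nearest protein-coding gene there, and are no members themselves, 29 were tested. In *bdrs* against WT, 2 of them were called higher (1.89% of all tested genes were) and 1 lower (2.78% of all tested genes were). In *fpa* against WT, 1 was called higher (1.31% of all tested genes were) and 3 lower (3.12% of all tested genes were). They are named here after their values were seen. AT3G54040, which lies 1183 bp upstream of *CFBP1* (plastid fructose-bisphosphatase) on the opposite strand, had 44.7, 58.2 and 55.8 CPM in *bdrs*, against 26.7, 20.4 and 23.2 CPM in WT (log2 fold change 1.18 ± 0.16, edgeR adjusted p = 8.58e-05), while *CFBP1* had a log2 fold change of −0.13. *ZIP9*, 997 bp upstream of *GLDP1* on the same strand, had a log2 fold change of 1.72 ± 0.43 in *bdrs* against WT at levels of 1.38 CPM or less in every library (edgeR adjusted p = 0.0239). Against the same WT libraries *ZIP9* had 1.83 ± 0.43 in *bdr2* (edgeR adjusted p = 0.794) and 1.42 ± 0.45 in *bdr3*, neither called. The rise was thus not particular to the triple mutant. *LBD40*, 4005 bp upstream of *RBCS1A* on the opposite strand, had 1.75, 1.37 and 0.647 CPM in *bdrs* and 0.994, 0.677 and 1.29 CPM in *fpa*, against 3.52, 3.91 and 6.47 CPM in WT. Its log2 fold changes were −1.89 ± 0.33 in *bdrs* and −2.27 ± 0.35 in *fpa* (edgeR adjusted p = 0.00103 and 0.000345), in comparisons that share the WT libraries, while *RBCS1A* had −0.07 in *bdrs*. The other calls in *fpa* were AT2G21340, upstream of *FBA1* (−0.74 ± 0.14, edgeR adjusted p = 0.00295), AT3G04780, upstream of *RPI3* (0.66 ± 0.18, edgeR adjusted p = 0.0367), and *TTN1*, upstream of *TKL1* (−0.63 ± 0.17, edgeR adjusted p = 0.0447).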
